A study of Mus musculus with 12 samples.

Results

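The genes described are the subunits of the mitochondrial respiratory chain and ATP synthase, read from 12 RNA-seq libraries of the mouse embryonic dorsal cortex. They were chosen by symbol among protein-coding genes of GRCm38: names of the Nduf, Sdh, Uqcr, Cox and Atp5 subunit series, and the protein-coding genes of the mitochondrial genome. The rule selected 98 of 55487 gene identifiers, 85 encoded in the nucleus and 13 in mitochondrial DNA. By the filter on low counts, 79 nuclear members and all 13 mitochondrial members entered the test. Cyc1, Cycs and Ndufab1, which also serve the chain, fall outside the name rule and were kept in a separate list.

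The respiratory chain passes electrons from NADH (complex I) and succinate (complex II) through complex III and cytochrome c to oxygen at complex IV. The proton gradient that complexes I, III and IV build drives ATP synthase, called complex V. Complex II is encoded entirely in the nucleus, while the other 4 combine nuclear subunits with subunits made inside the mitochondrion, so that transcripts of both genomes are needed for a working chain. Mitochondrial DNA is transcribed as long precursors that are cut into separate mRNAs, ribosomal RNAs and tRNAs. Neural progenitors are known for a strong use of glycolysis, and neurons for a heavy reliance on the respiratory chain.

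Tissue was laser-microdissected from the ventricular zone, the layer of dividing progenitors that lines the ventricle. Every animal received tamoxifen, given to drive Cre-loxP recombination of a ROSA26 cassette in which a floxed stop precedes p18 (the cyclin-dependent kinase inhibitor encoded by Cdkn2c), a P2A peptide and the fluorescent protein mKO2. The 4 groups of 3 libraries, named by embryonic day (E), were E13.5 p18mKO2- and E16.5 p18mKO2-, with the genotype given as normal, and E13.5 p18mKO2+ and E16.5 p18mKO2+, with the genotype given as p18mKO2 over-expression. The sources used here name neither the Cre line nor the day of injection, and do not say that replicates were separate embryos. The p-values therefore reflect only how far these libraries vary, and some of that variation may be technical.

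Each library held 17.1 to 21.8 times 1e6 counts. These are RSEM expected counts, and a gene is called where its adjusted p is under 0.05. Cdkn2c was not called at either stage (edgeR quasi-likelihood, log2 change 0.14, adjusted p = 0.798 at E13.5, and 0.32, adjusted p = 1.0 at E16.5), so the count of the targeted gene did not separate the labelled groups. The 11 radial glia markers summed to between 1420 and 3130 counts per 1e6 counts (CPM) and the 18 pan-neuronal markers to between 3108 and 11376 CPM, so the dissected tissue held transcripts of both cell classes in every library. In bulk tissue, fewer cells of a type and less RNA per cell cannot be told apart. In 2 libraries, replicate 3 of both p18mKO2+ groups, transcripts of both sexes were present. Replicate 3 of E16.5 p18mKO2- stood apart in its mitochondrial transcripts, and values without it are given beside the main results for members that it moves. The same library had the lowest radial glia sum, 1420 CPM, and the highest pan-neuronal sum, 11376 CPM.

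For 7 of the 13 mitochondrial members, the annotation also holds a nearly identical piece of mitochondrial DNA inserted in the nuclear genome, so that most reads from the shared stretch match both. These unprocessed pseudogenes lie together on the minus strand of GRCm38 chromosome 1, between 24611535 (the start of Gm28439) and 24616197 (the end of Gm29216). Over the aligned bases, 5 pairs were 100% identical, mt-Co1 and Gm29216 99.79%, and mt-Nd3 and Gm28438 99.71%. As annotated, the copies of mt-Atp6, mt-Co2, mt-Co3, mt-Nd3 and mt-Nd4l cover the whole gene except its last 1 to 3 bases. The ends of 3 genes are shown because these few bases, in capitals, are all that the annotated copy lacks there. Whether the inserted DNA holds these bases past the annotated end of the copy was not tested.
mt-Atp6: ctatatctacatgataatacaTAA
Gm10925: ctatatctacatgataataca
mt-Co2: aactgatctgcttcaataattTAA
Gm28661: aactgatctgcttcaataatt
mt-Co3: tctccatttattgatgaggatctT
Gm28437: tctccatttattgatgaggatct

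Inside the aligned stretches, 2 pairs had a differing base. Counted from the first base of the mitochondrial transcript, mt-Co1 and Gm29216 differ by A1066T, shown in capitals within bases 1063 to 1086, and mt-Nd3 and Gm28438 differ by T3C, shown within bases 1 to 23.
mt-Co1: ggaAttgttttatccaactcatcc
Gm29216: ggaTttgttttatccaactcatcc
mt-Nd3: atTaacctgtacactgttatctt
Gm28438: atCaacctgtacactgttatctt

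How the deposited counts fell between gene and copy differed from pair to pair. The copy held 98.3% of the pair's counts for mt-Nd4l and Gm10222, 97% for mt-Nd3 and Gm28438, 86% for mt-Atp6 and Gm10925, 83.7% for mt-Co2 and Gm28661, and 77.3% for mt-Co3 and Gm28437. It held 5.14% for mt-Co1, whose copy covers 483 of 1545 bases, and 2.21% for mt-Nd4, whose copy covers 876 of 1378. Of the 27803 counts on Gm28439, the copy of mt-Nd4, 26387 came from replicate 3 of E16.5 p18mKO2-, and without that library the share was 0.138%. Gene and copy had posterior standard deviations of the count that were equal within 0.14 reads in every library. For mt-Co2, which encodes the copper-carrying subunit that takes electrons from cytochrome c, the copy's share ran from 72% to 95% between libraries. The count of mt-Co2 alone had a coefficient of variation (CV) of 94.9% over the 12 libraries, and the sum with its copy 44.7%. Without replicate 3 of E16.5 p18mKO2- these were 38.5 and 20.7%. For mt-Nd3, a small subunit of complex I, the CV was 165% alone and 36.8% summed, and for mt-Nd4l 103% and 33.9%. Without that library they were 162 and 34.8% for mt-Nd3 and 110 and 20.1% for mt-Nd4l.

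**Figure D1:**
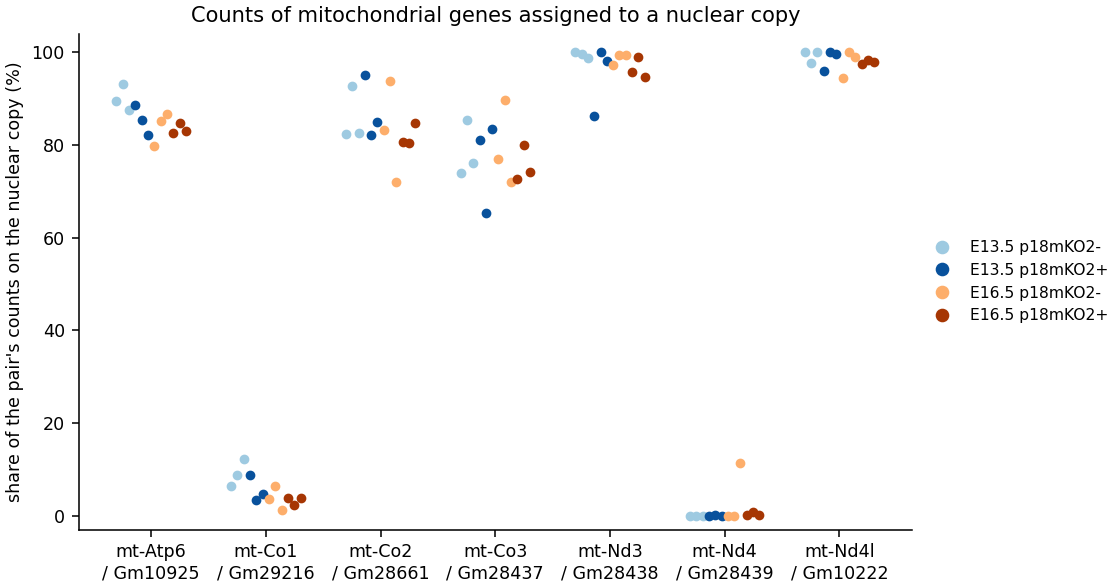
Share of each pair's counts that the deposited files give to the nuclear copy (vertical axis, percent), 12 libraries per pair coloured by group. In 5 pairs most counts sit on the copy, while mt-Co1 and mt-Nd4, with partial copies, have at most 12.2 and 11.4% on the copy in any library, the latter in replicate 3 of E16.5 p18mKO2-.

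The order of the mitochondrial mRNAs depends on these pairs. Per kilobase of transcript and with the copy's counts added, mt-Co3 (8407 ± 2434 CPM per kilobase, SD, n = 12 libraries), mt-Co1 (8204 ± 2425), mt-Co2 (8060 ± 3604) and mt-Atp6 (7804 ± 4287) stood highest and differed by less than their spread. These encode the 3 catalytic core subunits of complex IV and the proton channel subunit of ATP synthase. mt-Cytb, the cytochrome b of complex III, followed at 6360 ± 2982. The complex I genes were lower on this per-length scale: 4249 ± 1598 for mt-Nd1, 3914 ± 1925 for mt-Nd4, 1960 ± 1127 for mt-Nd2, 1275 ± 470 for mt-Nd3, 1269 ± 430 for mt-Nd4l and 1172 ± 378 for mt-Nd5. mt-Nd6, the single member on the minus strand of mitochondrial DNA, was lowest at 133 ± 43.7. The libraries were of polyadenylated RNA, and the part of that selection in this order was not tested. Without the copies, mt-Co3 stood at 1914, mt-Co2 at 1341, mt-Atp6 at 1085, mt-Nd3 at 36.2 and mt-Nd4l at 22.1 CPM per kilobase, so that all 5 moved down this order.

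Neighbouring genes also share bases. mt-Atp8 and mt-Atp6, read from 1 mRNA, share mitochondrial bases 7927 to 7969, and mt-Nd4l and mt-Nd4 share 10167 to 10173. mt-Atp8, 204 bases long, had the highest mean deposited TPM of the 13, at 31053, against 14025 for mt-Co1. Per kilobase of full length its level was 4446 ± 1402 CPM, below mt-Co1. TPM as RSEM computes it divides by an effective length, which is shorter than the transcript, so levels of very short transcripts differ between these scales.

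Summed over the 13 genes, mitochondrial mRNAs took 3.9, 3.47 and 3.51% of all counts in E13.5 p18mKO2-, and 3.34, 3.34 and 3.84% in E13.5 p18mKO2+. At E16.5 they took 2.45, 2.52 and 7.24% in p18mKO2- and 2.92, 3.29 and 4.08% in p18mKO2+. Replicate 3 of E16.5 p18mKO2- was thus far above the other 11 libraries, and without it the E16.5 p18mKO2- group lay below every other group. The 85 nuclear members took 0.704, 0.736 and 0.741% of counts in E13.5 p18mKO2-, 0.658, 0.707 and 0.636% in E13.5 p18mKO2+, 0.513, 0.671 and 0.595% in E16.5 p18mKO2-, and 0.609, 0.602 and 0.722% in E16.5 p18mKO2+. Their share in replicate 3 of E16.5 p18mKO2- lay between those of replicates 1 and 2.

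The ratio of mitochondrial to nuclear counts was 12.2 in replicate 3 of E16.5 p18mKO2- and between 3.76 and 6.04 in the other 11 libraries. With the nuclear copies added it was 17 in that library, against 5.88 to 8.54 elsewhere. Over the 6 genes for which the search listed no copy (mt-Nd1, mt-Nd2, mt-Nd5, mt-Nd6, mt-Cytb and mt-Atp8) it was 5.58 against 1.69 to 2.7. At 204 bases, mt-Atp8 could not reach the 250 aligned bases that the search required. Its bases 7927 to 7969 lie in the stretch of mt-Atp6 that Gm10925 copies, so this sum is not free of shared sequence. The same library thus stood apart on each of these counts, and it was also the library with 11.4% of the mt-Nd4 pair on Gm28439.

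**Figure D2:**
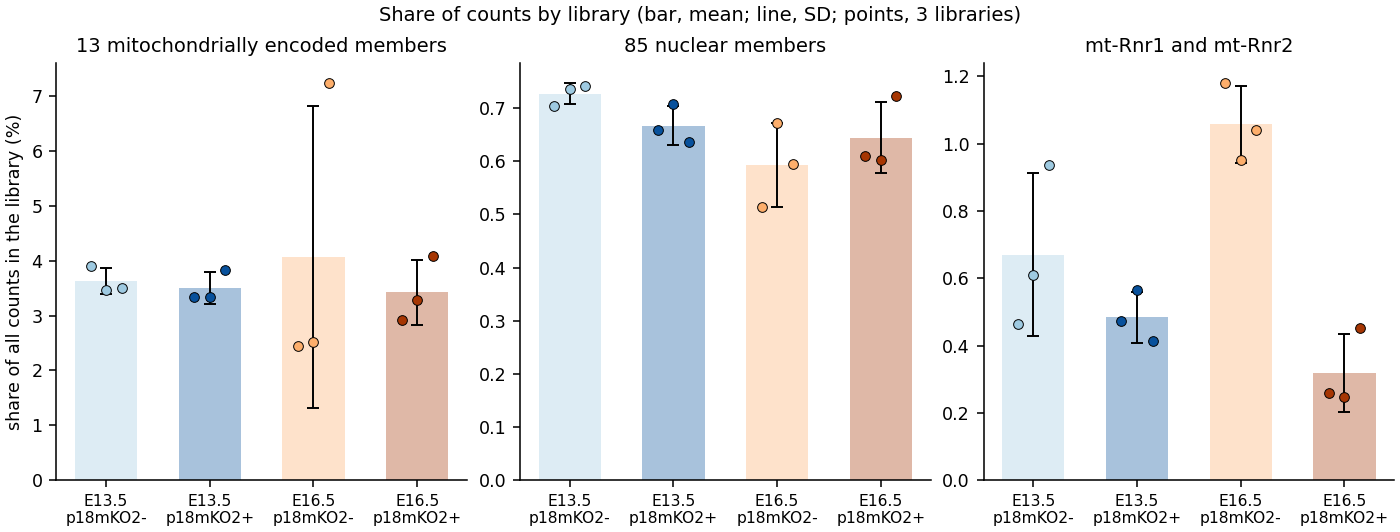
Share of all counts (vertical axes, percent) taken by the mitochondrially encoded members, the nuclear members and the mitochondrial ribosomal RNAs. Bars give means, lines the SD and points the 3 libraries of each group. In the first panel 1 E16.5 p18mKO2- library sits at 7.24%, and in the third all 3 E16.5 p18mKO2- libraries, at 0.951 to 1.18%, lie above every other library.

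No mitochondrial member was called in any of the 5 comparisons by edgeR or DESeq2. All genes called by edgeR made up 10.8% of 16798 for p18 at E13.5, 0.0% for p18 at E16.5 and 29.8% between stages in p18mKO2-. They made up 1.64% between stages in p18mKO2+ and 2.7% for the contrast of the 2 p18 effects, E16.5 less E13.5. The shares of all genes called by DESeq2 are not given here. An unadjusted p under 0.05 was found for 1 of the 13 for p18 at E13.5 (25.4% of all genes) and 1 between stages in p18mKO2- (39.4%). It was found for 0 of the 13 for p18 at E16.5 (2.54%), between stages in p18mKO2+ (14.8%) and for the contrast (16.4%). The gene with the low p at E13.5 was mt-Nd3, with counts of 0.0, 43.5 and 65.3 in p18mKO2- and 1454, 0.0 and 191 in p18mKO2+. These counts overlap between the groups, and the fitted log2 change of 3.68 had an adjusted p of 0.146 (edgeR; 4.26 and 0.0404 without replicate 2 of E13.5 p18mKO2+). With the copy's counts added, the change of mt-Nd3 was -0.21 ± 0.39 (SE; edgeR, adjusted p = 0.803). The gene with the low p between stages in p18mKO2- was mt-Atp6, at 0.97 (edgeR, adjusted p = 0.0888; 0.0475 without replicate 1 and 0.0395 without replicate 2 of E16.5 p18mKO2-). Without replicate 3 of that group its change was 0.24 ± 0.30 (SE; edgeR, adjusted p = 0.609), and with the copy's counts added 0.42 ± 0.42 (adjusted p = 0.507). For all 13 genes with copies added, log2 changes lay between -0.33 and 0.06 for p18 at E13.5.

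In the stage comparison of p18mKO2-, the median log2 change of the 13 mitochondrial members was 0.37 (E16.5 over E13.5; -0.02 over all genes tested), and it was -0.49 without replicate 3 of E16.5 p18mKO2-. mt-Nd1, a membrane core subunit of complex I, showed the pattern, with 4655, 4498 and 3919 CPM in E13.5 p18mKO2- against 2718, 3175 and 8488 CPM in E16.5 p18mKO2-. The first 2 E16.5 values lay below all 3 at E13.5 and the third above them. Without that library, 3 complex I genes were called lower at E16.5 by edgeR: mt-Nd5 (-0.65 ± 0.20, SE, adjusted p = 0.0274), mt-Nd1 (-0.55 ± 0.17, adjusted p = 0.0314) and mt-Nd2 (-0.60 ± 0.20, adjusted p = 0.0438). With it, the log2 change was 0.14 for mt-Nd1 (adjusted p = 0.797), 0.44 for mt-Nd2 (0.497) and -0.03 for mt-Nd5 (0.956), none of them called. With all 12 libraries, 29.8% of all genes were called in this comparison, 13.4% lower. The share of all genes called without that library is not given here.

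The p18 comparison at E16.5 rested on the same library. The median log2 change of the mitochondrial members was -0.50 (p18mKO2+ over p18mKO2-; -0.01 over all genes tested) and 0.28 without it. The contrast of the p18 effects (E16.5 less E13.5) had a median of -0.37 with it and 0.40 without it. In the stage comparison of p18mKO2+, which does not use that library's group, the median was near 0, with changes from -0.65 to 0.65.

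The mitochondrial ribosomal RNAs, which are no members, were measured beside them. mt-Rnr1 and mt-Rnr2 together took 1.18, 0.951 and 1.04% of counts in E16.5 p18mKO2- and 0.258, 0.247 and 0.451% in E16.5 p18mKO2+. The groups did not overlap, as was so for 7.95% of all genes, and replicate 3 of E16.5 p18mKO2- was within its group here. The log2 change was -1.91 ± 0.29 (SE) for mt-Rnr1 and -1.91 ± 0.30 for mt-Rnr2 (edgeR, adjusted p = 0.154 for both, the smallest of all genes in that comparison). In the stage comparison of p18mKO2-, mt-Rnr1 rose by 1.00 ± 0.28 (edgeR, adjusted p = 0.0168) and mt-Rnr2 had a change of 0.69 ± 0.29 (adjusted p = 0.0896). The ratio of ribosomal RNA to the 13 mRNAs was 0.481, 0.377 and 0.144 in E16.5 p18mKO2-, against 0.075 to 0.111 in E16.5 p18mKO2+ and 0.108 to 0.267 at E13.5. The ribosomal RNA gene CT010467.1 moved with it, at 13.6, 8.4 and 6.28% of counts in E16.5 p18mKO2- and 2.75, 1.79 and 3.97% in E16.5 p18mKO2+, and the part of ribosomal RNA carried into these polyadenylated libraries was not tested.

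Among the nuclear members, 75 of 85 had a mean TPM of at least 20, with a median of 202 over those 75. By complex the median TPM was 150 for the 35 genes of complex I, 109 for the 4 of complex II, 215 for the 8 of complex III, 367 for 12 of complex IV and 312 for 16 of complex V. The highest was Atp5b, the catalytic beta subunit of ATP synthase, at 884 TPM, followed by Cox6b1 of complex IV at 734 and Uqcrh, the hinge subunit of complex III, at 586. The lowest of the 75 was Ndufb4 at 47.1, and in complex I the highest was Ndufa12 at 304. In complex II, Sdhb, the iron-sulfur subunit, stood at 146 and the membrane anchor Sdhd at 75.5.

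The other 10 nuclear members were mostly tissue-specific isoforms. Cox6a2 and Cox8b, forms of striated muscle, and Cox8c, a form of testis, had 0 counts in all 12 libraries, which allows up to 3 counts in each, for counting error only. Cox7a1, also of muscle, had 46 counts in all and Cox7b2 had 6. A second identifier with the symbol Atp5o had 37.7, and Atp5s stood at 11.1 TPM. Cox4i1, the general form of the regulatory subunit 4, made up 99.5% of the Cox4 TPM, between 99 and 99.9% by library. Cox4i2, its oxygen-sensitive form, had 24 counts in E13.5 p18mKO2-, 80 in E13.5 p18mKO2+, 50 in E16.5 p18mKO2- and 48 in E16.5 p18mKO2+. In E13.5 p18mKO2- its level was 0.208, 0.488 and 0.643 CPM, and in E13.5 p18mKO2+ 1.12, 1.6 and 0.939 CPM. The groups did not overlap, but the log2 change of 1.44 ± 0.66 did not pass the test (edgeR, adjusted p = 0.191). The testis form Cox6b2 made up 1.24% of Cox6b TPM, and Ndufa4l2 2.13% of the TPM it shares with Ndufa4.

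Other isoforms were present together. Atp5g1, Atp5g2 and Atp5g3 encode the same mature c subunit of the ATP synthase rotor with different targeting peptides, and held 23.2, 35.7 and 41.2% of their summed TPM. Cox7a2l, which helps join complexes III and IV into supercomplexes, held 47.7 ± 3.65% of Cox7a TPM in E13.5 p18mKO2-, 50.5 ± 7.68% in E13.5 p18mKO2+, 56.9 ± 3.31% in E16.5 p18mKO2- and 58.1 ± 2.7% in E16.5 p18mKO2+ (SD, n = 3 each). Cox7a2, the general subunit, took nearly all of the rest.

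In the p18 comparison at E13.5, 0 of 79 nuclear members were called by edgeR, against 10.8% of all genes tested (7.29% higher and 3.49% lower). At an unadjusted p under 0.05 there were 6 (7.59%, against 25.4% of all genes). DESeq2 called 1, and the share of all genes that it called is not given here. Changes were small and mostly of 1 sign: 67 members had a negative and 12 a positive log2 change, with a median of -0.19 (0.01 over all genes tested) and a median size of 0.21 (0.35 over all genes). By complex the medians were -0.22 (I), -0.23 (II), -0.10 (III), -0.20 (IV) and -0.18 (V). In 17 members every p18mKO2+ library lay below every p18mKO2- library and in 1 above, together 22.8% of the nuclear members. Over all genes the share without overlap was 30.7%, 14.1% lower and 16.6% higher.

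Ndufa12, an accessory subunit of complex I, came nearest to the threshold. Its level was 92.9, 102 and 108 CPM in E13.5 p18mKO2- and 73, 79.2 and 56.8 CPM in E13.5 p18mKO2+, without overlap. The log2 change was -0.54 ± 0.16 (SE; edgeR, adjusted p = 0.051), and DESeq2 called it (-0.54, adjusted p = 0.0207). Leaving out E16.5 p18mKO2- replicate 3 gave an edgeR adjusted p of 0.0324, E16.5 p18mKO2+ replicate 3 0.0394 and E13.5 p18mKO2+ replicate 2 0.0434. Atp5d, the delta subunit of the rotor stalk, stood at 108, 129 and 111 CPM against 88.2, 97 and 73.9 CPM (-0.42 ± 0.15, edgeR adjusted p = 0.083), again without overlap. Ndufb7 of the membrane arm, with 56.4, 50.8 and 67 against 41.8, 47.2 and 42.1 CPM, had a log2 change of -0.41 ± 0.16 (edgeR adjusted p = 0.125). Atp5j, coupling factor 6 of the peripheral stalk, had a log2 change of -0.50 ± 0.20 (adjusted p = 0.124), and Sdhc, an anchor of complex II that binds heme, one of -0.27 ± 0.12 (adjusted p = 0.174).

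At E16.5 the p18 comparison called 0 of 79 nuclear members and 0.0% of all genes (edgeR). None had an unadjusted p under 0.05, against 426 of 16798 genes (2.54%). DESeq2 called none, and the share of all genes that it called is not given here. The median log2 change was -0.10, with 62 members negative and 17 positive, and the changes ran from -0.65 for Ndufb4 to 0.19 for Atp5g1. Without E16.5 p18mKO2- replicate 3, which had the highest Ndufb4 level, the change of Ndufb4 was -0.03 ± 0.27 (edgeR, adjusted p = 1.0) and the median -0.03. Sdhd alone had groups without overlap, lower in p18mKO2+, against 7.95% of all genes (3.88% lower and 4.07% higher). Cox6c, a small membrane subunit of complex IV, had the lowest p: 64.7, 112 and 154 CPM in p18mKO2- against 65.4, 66.5 and 94.2 CPM in p18mKO2+. Those groups overlap and spread widely, and the log2 change was -0.55 ± 0.28 (edgeR, adjusted p = 1.0). Without replicate 3 of p18mKO2-, at 154 CPM, it was -0.22 ± 0.26 (adjusted p = 1.0). For the contrast of the p18 effects, 0 of 79 were called by edgeR and by DESeq2, against 2.7% of all genes by edgeR (0.298% higher and 2.4% lower), and 1 had an unadjusted p under 0.05, against 16.4% of all genes. It was Atp5g1, at 0.52 ± 0.23 (edgeR, adjusted p = 0.281), and the median over the nuclear members was 0.09.

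**Figure D3:**
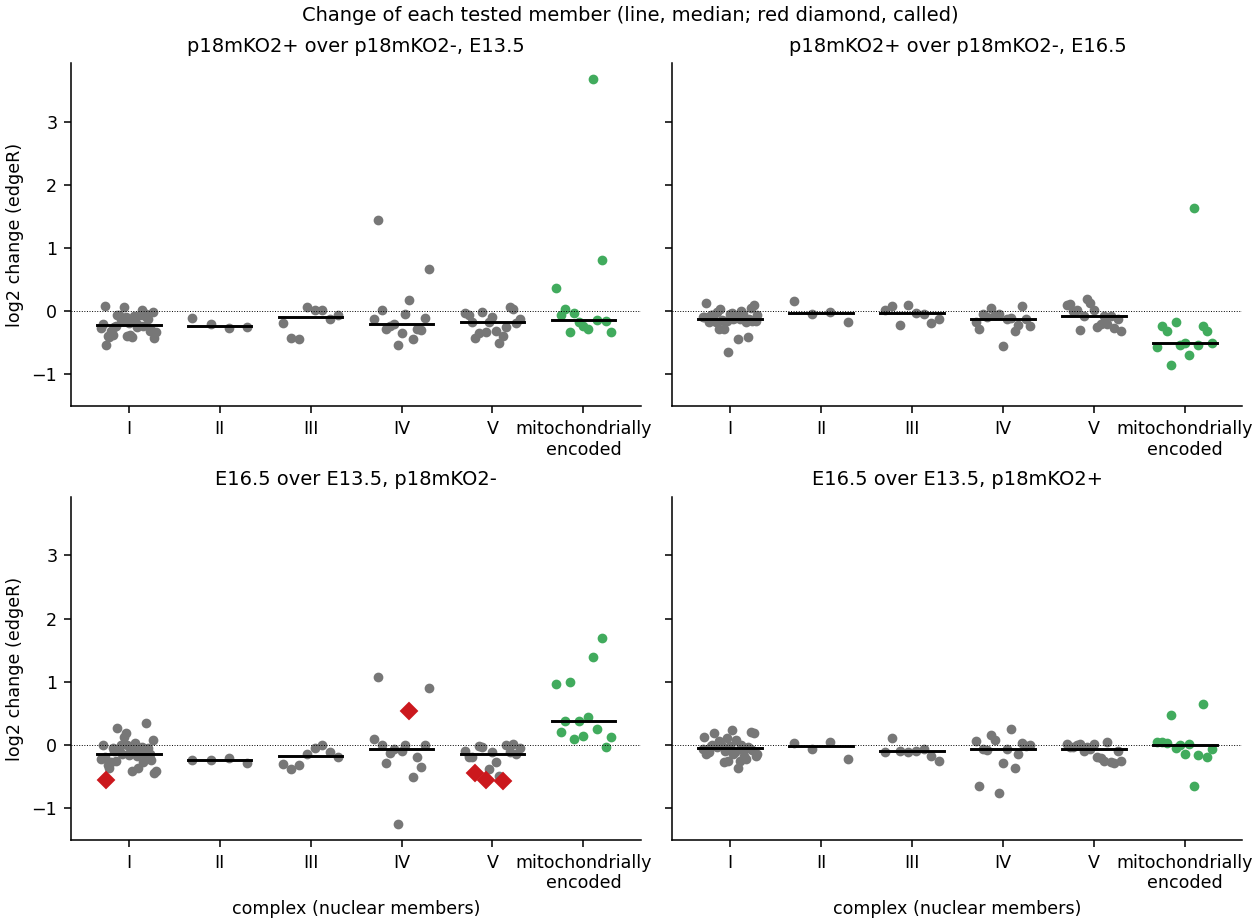
Log2 change (vertical axes) of every tested member in 4 comparisons, nuclear members by complex and mitochondrially encoded members at the right; lines are medians and red diamonds members called by edgeR. Nuclear members lie close to 0, and the 5 called ones are all in the stage comparison of p18mKO2-.

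From E13.5 to E16.5 in p18mKO2-, 5 of 79 nuclear members were called by edgeR, 1 higher and 4 lower, against 29.8% of all genes tested (16.4% higher and 13.4% lower). This was 6.33% of the nuclear members. DESeq2 also called 5, and the share of all genes that it called is not given here. At an unadjusted p under 0.05 there were 9 (11.4%, against 39.4% of all genes). The median log2 change was -0.15 (-0.02 over all genes tested), with 67 negative and 12 positive, and the median size was 0.18 against 0.51 over all genes. In 15 members every E16.5 library lay below every E13.5 library and in 3 above (22.8%), against 19.4% and 21% of all genes (40.4% in either direction). This comparison and the p18 comparison at E13.5 share the 3 E13.5 p18mKO2- libraries, so their values for a member are not independent.

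Atp5g1 (chromosome 11, 96068852 to 96075670, minus strand, GRCm38) stood at 72.6, 92.2 and 79.3 CPM in E13.5 p18mKO2- and 51.2, 65.9 and 49.3 CPM in E16.5 p18mKO2-. The groups did not overlap and the log2 change was -0.55 ± 0.16 (SE; edgeR, adjusted p = 0.0204). Ndufa12 (chromosome 10, 94198720 to 94221443, plus strand) fell from 92.9, 102 and 108 to 62.1, 68.1 and 76.8 CPM, a log2 change of -0.55 ± 0.16 (adjusted p = 0.0209). Atp5d (chromosome 10, 80138632 to 80145818, plus strand) fell from 108, 129 and 111 to 86.4, 90.2 and 79.6 CPM, a log2 change of -0.44 ± 0.15 (adjusted p = 0.0364). Of the 4 that fell, all but Ndufa12 belong to complex V.

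The fourth gene to fall was Atp5j2 (chromosome 5, 145183698 to 145192062, minus strand), which encodes subunit f of the membrane part of ATP synthase. It stood at 98.8, 90.1 and 135 CPM at E13.5 and 57.7, 80.2 and 80.7 CPM at E16.5, a change of -0.57 ± 0.20 (edgeR, adjusted p = 0.0460). Cox7a2l (chromosome 17, 83501918 to 83517330, minus strand) was the member that rose, from 120, 112 and 108 to 141, 187 and 163 CPM, a log2 change of 0.53 ± 0.17 (adjusted p = 0.0308). All 5 genes were without overlap between the stages in p18mKO2-, and in p18mKO2+ their stage changes were not called (Cox7a2l 0.25 ± 0.17, adjusted p = 0.561; Atp5j2 -0.26 ± 0.20, adjusted p = 0.631).

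Each of these calls was lost when 1 library was left out. Ndufa12 lost it without replicate 2 or 3 of E13.5 p18mKO2- or replicate 1 or 2 of E16.5 p18mKO2-, with adjusted p between 0.0532 and 0.069 (edgeR). Cox7a2l lost it without replicate 2 or 3 of E13.5 p18mKO2- or replicate 2 of E16.5 p18mKO2- (0.0791 to 0.123), and Atp5g1 without replicate 2 of E13.5 p18mKO2- or replicate 1 or 3 of E16.5 p18mKO2- (0.0611 to 0.0877). Atp5d lost it without any 1 of the 6 p18mKO2- libraries (0.052 to 0.14), and Atp5j2 without replicate 1 or 3 of E13.5 p18mKO2- or replicate 1 or 2 of E16.5 p18mKO2- (0.0632 to 0.198). Atp5d also lost it without replicate 1 of E13.5 p18mKO2+ or replicate 1 or 2 of E16.5 p18mKO2+ (0.0534 to 0.0712), and Atp5j2 without any 1 of the E13.5 p18mKO2+ libraries or E16.5 p18mKO2+ replicate 1 or 2 (0.0519 to 0.0689). The direction held in each case. Without E16.5 p18mKO2- replicate 3, 6 nuclear members were called: Ndufa12, Cox7a2l and Atp5j2 again, and Ndufv3 (-0.63 ± 0.16, adjusted p = 0.011), Ndufv2 (-0.62 ± 0.20, 0.0378) and Uqcrb (-0.72 ± 0.24, 0.0411), the last 3 lower at E16.5. The share of all genes called in that fit is not given here.

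**Figure D4:**
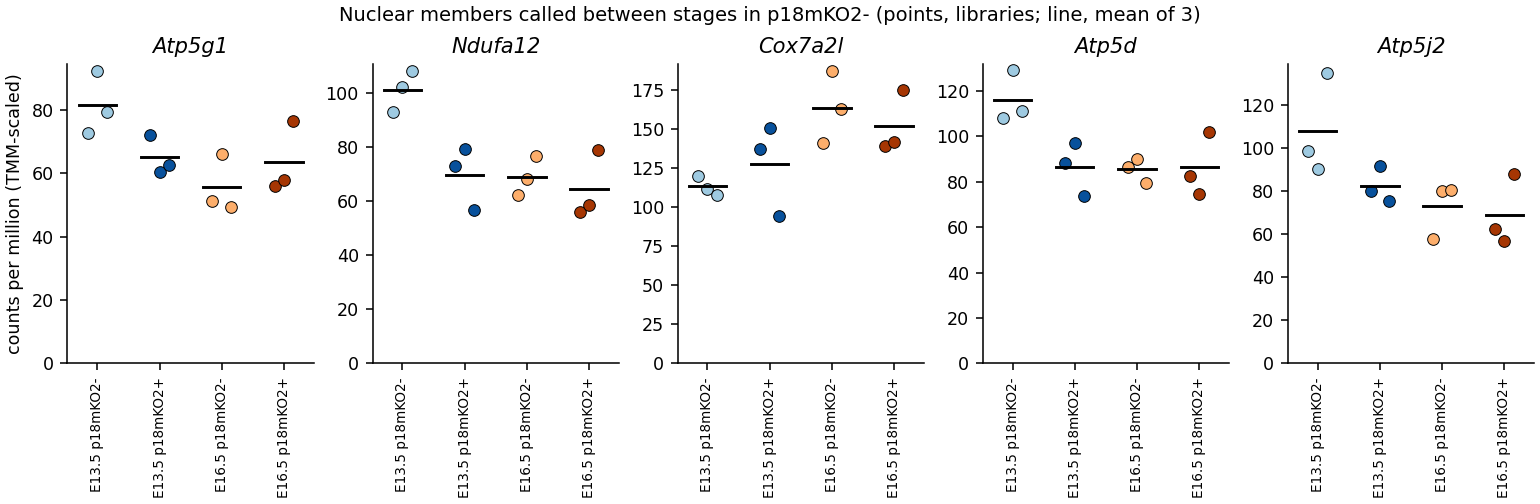
Level (vertical axes, CPM) of the 5 nuclear members called between stages in p18mKO2-, by library, with the mean of 3 as a line. Atp5g1, Ndufa12, Atp5d and Atp5j2 have their highest group mean in E13.5 p18mKO2-, and for Cox7a2l 1 E13.5 p18mKO2+ library, at 94.7 CPM, lies below that group.

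In p18mKO2+, the stage comparison called 0 of 79 nuclear members by edgeR and by DESeq2, against 1.64% of all genes by edgeR (1.08% higher and 0.554% lower), and none had an unadjusted p under 0.05, against 14.8% of all genes. The median log2 change was -0.07 and the median size 0.10, against 0.26 over all genes. In 2 members, Ndufb4 and Ndufb11, every E16.5 library lay below every E13.5 library, against 26.6% of all genes without overlap in either direction. The nearest to the threshold was Ndufb11 of complex I, at -0.27 ± 0.17 (edgeR, adjusted p = 0.512).

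The level of short nuclear members relative to long ones differed between libraries, also within a group. Of the 75 nuclear members with a mean of at least 10 CPM, 41 were under 700 bases and 19 were 1000 bases or longer, limits chosen after the values were seen. Relative to each gene's mean over all libraries, the median log2 level of the short members was 0.37 in E13.5 p18mKO2- replicate 3, where that of the long ones was 0.03. In E16.5 p18mKO2- replicate 1 the medians were -0.34 and -0.03. Within E16.5 p18mKO2+ the short members stood at -0.28, -0.37 and 0.20, and the long ones at -0.05, -0.12 and 0.09. Across the 75 genes, Spearman's rho between length and this relative level ran from -0.44 (E13.5 p18mKO2- replicate 3 and E16.5 p18mKO2- replicate 3) to 0.69 (E16.5 p18mKO2+ replicate 2), and across 10001 genes of the same minimum level from -0.40 to 0.45. These genes share their libraries, so rho describes the libraries only. Atp5g1, Atp5j2, Atp5d and Ndufa12 are 784, 701, 932 and 589 bases long as deposited, and the part of length in their change was not tested.

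**Figure D5:**
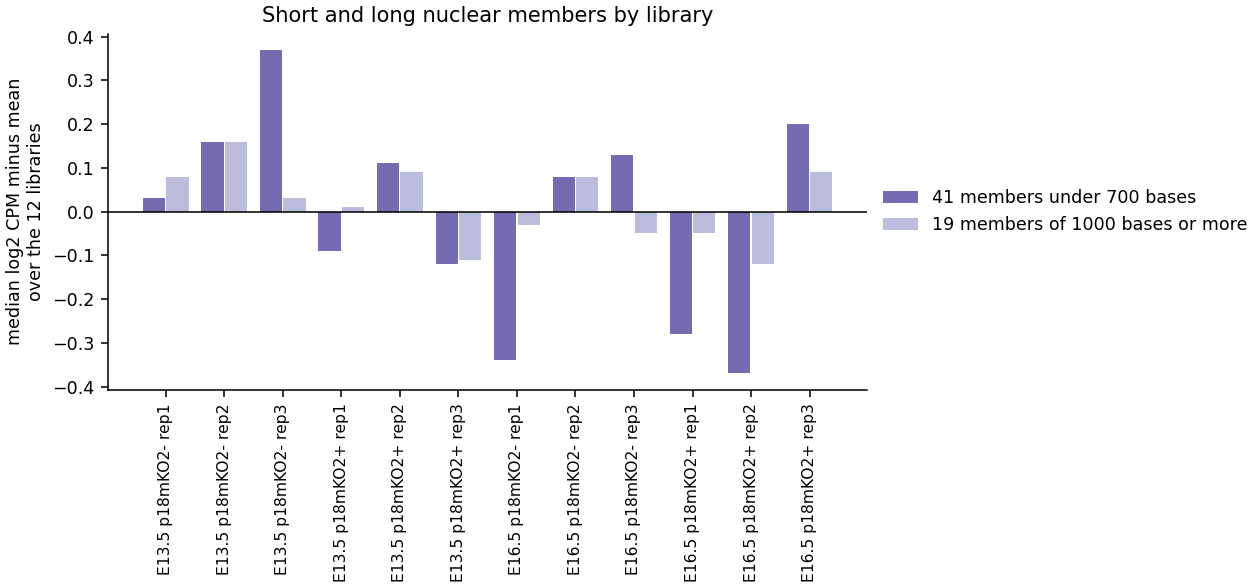
Median log2 level of 41 short and 19 long nuclear members in each library, relative to each gene's mean over the 12 libraries (vertical axis). The short members run from -0.37 to 0.37 and differ between libraries of the same group, while the long ones stay between -0.12 and 0.16.

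The spread of single members was otherwise moderate. Over the 12 libraries the CV of these 75 genes had a median of 18%, against 20.1% for 10001 genes of that level. Ndufs1, the largest iron-sulfur subunit of complex I, varied least at 5.02%, between 72.4 and 84.3 CPM. Ndufb4 varied most at 38.7%, between 7.06 and 26 CPM, and its highest value was in E16.5 p18mKO2- replicate 3, without which its CV was 26.6%.

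The promoters of the called genes were searched for motifs linked to nuclear control of respiration. RefSeq promoter windows of GRCm38.p6, 250 bases before to 50 after the annotated start, were found for 66 of 84 symbols of nuclear members. On either strand, the palindromic NRF1 motif was present in 25.8% of these 66, against 5.19% of 27025 genes. The ETS motif (CCGGAAG), read by the GABP factor, was present in 24.2% against 9.93%, and the YY1 motif (AAGATGGC) in 13.6% against 3.19%. A TATA motif (TATAAA) was present in 10.6% against 15.7%. The 27025 genes were not limited to the 16798 tested for expression here. The part of expression level or base content in these shares was not tested. Matches of different motifs did not overlap in any of the 66. The windows of a gene that fell (Atp5j2, chr5:145191492-145191791, strand -) and the gene that rose (Cox7a2l, chr17:83514284-83514583, strand -) between stages are printed to show them, with motif letters in capitals.
Atp5j2: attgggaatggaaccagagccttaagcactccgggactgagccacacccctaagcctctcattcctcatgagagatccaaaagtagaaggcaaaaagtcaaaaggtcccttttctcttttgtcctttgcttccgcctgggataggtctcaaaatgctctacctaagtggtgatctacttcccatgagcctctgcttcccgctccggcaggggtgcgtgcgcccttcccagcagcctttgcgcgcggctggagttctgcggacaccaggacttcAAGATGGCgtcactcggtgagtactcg
Cox7a2l: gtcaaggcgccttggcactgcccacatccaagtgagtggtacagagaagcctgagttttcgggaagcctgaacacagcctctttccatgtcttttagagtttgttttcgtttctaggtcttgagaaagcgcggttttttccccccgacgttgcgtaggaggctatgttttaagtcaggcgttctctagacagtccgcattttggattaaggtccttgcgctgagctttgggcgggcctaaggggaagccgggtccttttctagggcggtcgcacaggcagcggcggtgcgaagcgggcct
Atp5j2 held 1 YY1 match, and Cox7a2l, Atp5g1, Atp5d and Ndufa12 held none of the 4 motifs in these windows. A match of letters is a description and not a measured binding site.

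The factors that read these motifs and their partners were also measured. Of 11 regulators tested, 3 fell between stages in p18mKO2- and none rose (27.3%, against 29.8% of all genes called and 13.4% called lower). They were Pprc1, a coactivator of the PGC-1 family (-0.70 ± 0.22, SE, edgeR adjusted p = 0.0269), Nrf1 itself (-0.35 ± 0.12, 0.0388) and Gabpb1, a subunit of GABP (-0.39 ± 0.14, 0.0403). The log2 change of Ppargc1a was -0.16 ± 0.34 (adjusted p = 0.771) and that of Gabpa -0.10 ± 0.16 (0.678). None of the 11 was called for p18 at either stage, against 10.8% of all genes at E13.5 and 0.0% at E16.5.

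Genes that copy, transcribe and process mitochondrial DNA and RNA showed 7 of 30 lower and none higher between stages in p18mKO2- (23.3%, against 29.8% of all genes called and 13.4% called lower; median -0.30). Among them were Supv3l1, a helicase of mitochondrial RNA turnover (-0.75 ± 0.16, edgeR adjusted p = 0.00248), Fastk (-0.67 ± 0.17, 0.00771) and Polrmt, the mitochondrial RNA polymerase (-0.68 ± 0.20, 0.0208). None of the 30 was called for p18 at E13.5, against 10.8% of all genes. Of 48 assembly factors, which build the complexes, 2 rose (Ndufaf3 and Lyrm7) and 2 fell between stages in p18mKO2- (8.33%, against 29.8% of all genes called). With p18 at E13.5, 1 of the 48 fell (2.08%, against 10.8% of all genes called): Atpaf1, a chaperone of the ATP synthase head (-0.62 ± 0.19, edgeR adjusted p = 0.0475). Cyc1, Cycs and Ndufab1 were not called in any comparison.

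Mitochondrial ribosomal proteins help make the 13 mitochondrial proteins. Of 78, 8 fell with p18 at E13.5 (10.3%, against 10.8% of all genes called in either direction and 3.49% called lower; median -0.29), and 15 fell between stages in p18mKO2- (19.2%; 13.4% of all genes called lower; median -0.26), with none higher in either. Mrpl39 had a log2 change of -0.73 ± 0.14 with p18 at E13.5 (edgeR, adjusted p = 0.00588) and of -1.0 ± 0.14 between stages (adjusted p = 0.000162). The change with p18 at E13.5 was -0.66 ± 0.18 (0.031) for Mrpl4 and, for Mrpl40, -0.68 ± 0.19 (0.0333).

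Genes of fuel pathways were read in the same tests. Of 17 genes of the tricarboxylic acid cycle, 3 fell between stages in p18mKO2- and none rose (17.6%, against 29.8% of all genes called and 13.4% called lower): Suclg2, of GTP-forming succinyl-CoA ligase (-1.64 ± 0.26, edgeR adjusted p = 0.000318), Idh2 (-0.69 ± 0.14, 0.00253) and Fh1, fumarase (-0.64 ± 0.16, 0.0075). Of 9 carriers and channels, Slc25a5 (-0.88 ± 0.17, 0.00157) and the phosphate carrier Slc25a3 (-0.49 ± 0.12, 0.00816) fell and Slc25a14 rose (0.79 ± 0.24, 0.0217), which is 33.3% called against 29.8% of all genes. The glycolysis list held 23 identifiers, with glucose and lactate transporters and Pdk1 among them, and counts each identifier of a symbol. Of the 23, 15 fell and 5 rose between stages in p18mKO2- (87%, against 29.8% of all genes called and 13.4% called lower, median -0.93). For p18 at E13.5, 9 fell and 2 rose (47.8%, against 10.8% called and 3.49% called lower, median -0.48). Gapdh (-1.10 ± 0.15, 0.00011) and Aldoa (-1.05 ± 0.12, 3.25e-05) fell and the hexokinase gene Hk1 rose (1.47 ± 0.19, 6.59e-05) between stages. With p18 at E13.5, Ldha (-1.0 ± 0.20, 0.00645) and Pgam1 (-0.74 ± 0.14, 0.00477) fell, and the neuronal enolase gene Eno2 rose (1.09 ± 0.22, 0.00628). At E16.5 none of these lists had a gene called for p18, as was so for all genes.

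Markers of cell state moved in the same comparisons. The 12 cell cycle genes summed to 3489 to 3735 CPM in E13.5 p18mKO2-, 1733 to 2362 in E13.5 p18mKO2+, 993 to 1615 in E16.5 p18mKO2- and 1337 to 1512 in E16.5 p18mKO2+. The 18 pan-neuronal genes summed to 3108 to 3674, 5560 to 8589, 8520 to 11376 and 8696 to 9586 CPM in that order, and the 11 radial glia genes to 2828 to 3130, 1758 to 2433, 1420 to 2009 and 1720 to 1923. All 3 sums were without overlap between E13.5 p18mKO2- and each of the other groups compared with it, and no listed gene was at 0 in all libraries. Replicate 3 of E16.5 p18mKO2- had the lowest cell cycle (993 CPM) and radial glia (1420 CPM) sums and the highest pan-neuronal sum (11376 CPM) of the 12 libraries. Its glycolysis sum, 3012 CPM, was also the lowest. Tests of these lists without that library are not given here. Choroid plexus markers ranged from 21.4 to 1495 CPM between libraries. The part of these cell markers in the levels of the chain genes was not tested.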

How the data were processed

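Polyadenylated RNA of 12 libraries was sequenced from a directional kit. Per the submitters' processing notes the authors used cutadapt 3.4, STAR 2.7.2b and RSEM 1.2.31 with GRCm38/mm10; no source used here gives the annotation release. The deposited files give, per gene, expected counts and TPM as RSEM estimates them, which divide reads of near-identical genes between them.

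Names and coordinates came from a GENCODE annotation of GRCm38, which held 55227 of 55487 identifiers. Copies of mitochondrial genes were found with BLAST 2.17.0 on the annotated transcripts (at least 99% identity over at least 250 bases). Expected counts were rounded and fitted with edgeR 4.0.16 in R 4.3.3 (TMM scaling, filterByExpr, quasi-likelihood test, Benjamini-Hochberg adjustment over the 16798 genes tested, called at an adjusted p under 0.05). All 12 libraries entered 1 fit with a mean per group, leaving 8 residual degrees of freedom. The common biological coefficient of variation was 0.311. The p18 comparisons are p18mKO2+ over p18mKO2- within a stage, and the stage comparisons E16.5 over E13.5. Other settings were DESeq2 1.42.0, RLE size factors, other filters, a replicate block, a ribosomal RNA covariate, fewer libraries, and gene counts with copies added, the last chosen after seeing the data. The fit was tested on simulated data. Tables were made with Python 3.11.15, pandas 2.3.3 and numpy 2.4.6.

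The genes named were every mitochondrially encoded member, up to 3 nuclear members per complex and comparison with the smallest p, every called nuclear member, the listed isoform groups, up to 3 genes per other list and comparison, and the highest and lowest TPM of each complex. Members named outside this rule, such as Ndufs1 and those called without a library, were chosen after their values were seen. Members and lists were chosen with earlier results of these data known.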

Additional observations from a re-analysis of the deposited data

Results flagged for a closer look

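Mrpl39, a protein of the large mitochondrial ribosomal subunit, was called, close to the threshold, for a difference of the p18 effect between stages. The log2 change was -0.73 ± 0.14 (SE; edgeR, adjusted p = 0.00588) at E13.5, and the difference between the effect at E16.5 and that at E13.5 was 0.82 ± 0.20 (adjusted p = 0.048), with 3 libraries in each group. Of the 78 mitochondrial ribosomal protein genes tested it was the single one called for this difference (1.28%, against 2.7% of all genes). Both values use the E13.5 libraries, so they are not independent. Fits of Mrpl39 with single libraries left out are not given here.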

How the results depend on the processing

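The nuclear members called in the p18 comparison at E13.5, 0 in the fit reported, were 1 with DESeq2, 1 with RLE size factors, 2 with a mean CPM of at least 5, 2 with no filter on low counts and 1 with the replicate block. Between stages in p18mKO2- the 5 became 2 with the 6 libraries compared alone and 8 with the replicate block. Mitochondrially encoded members called were 1 (p18 at E13.5) and 4 (stages in p18mKO2-) with no filter, and 1 for the latter with the replicate block. The median of the mitochondrially encoded members for p18 at E13.5 was -0.38 with the ribosomal RNA covariate. The median of the nuclear members for the difference between stages was -0.11 without the libraries holding transcripts of both sexes. The shares of all genes called under each of these settings are not given here. These counts therefore do not say whether the members differed from other genes. The cause of these shifts was not tested.

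Leaving out 1 library at a time, nuclear calls ranged from 0 to 1 for p18 at E13.5 and from 1 (without E13.5 p18mKO2- replicate 2 or 3, or E16.5 p18mKO2- replicate 1) to 6 (without E16.5 p18mKO2- replicate 3) between stages in p18mKO2-. Mitochondrial calls ranged from 0 to 1 (without E13.5 p18mKO2+ replicate 2) and from 0 to 3 in these comparisons. No other comparison gained a call in these fits, for which the shares of all genes called are not given here either. Medians of the mitochondrially encoded members ranged from -0.18 to 0.03 for p18 at E13.5, -0.80 to 0.28 for p18 at E16.5, -0.49 to 0.62 and -0.19 to 0.13 between stages in p18mKO2- and p18mKO2+, and -0.65 to 0.40 for the difference. Medians of the nuclear members ranged from -0.27 to -0.13, -0.25 to -0.02, -0.21 to -0.04, -0.20 to 0.04 and -0.04 to 0.17 in that order. Of 10013 values of single members under these settings, 33 lost and 33 gained a call, no called value changed sign, and 802 uncalled ones had the other sign.

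Replicate numbers are shared by the groups without a stated pairing. Same-numbered libraries had correlations of their deviations between -0.0686 and 0.283, over 0.1 in 8 of 18 pairs. Differently numbered libraries of different groups had correlations between -0.209 and 0.0988. What same-numbered libraries share was not tested. The reported fit holds no replicate block, as no pairing is stated, and calls with that block are given here only. With 3 libraries a group, the nuclear members had a median SE of 0.19 in the p18 and stage comparisons, which sets how small a change could be called.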
